A study of Homo sapiens with 12 samples.

Results

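The untreated control libraries of the small cell lung cancer lines H211 and H82 were compared gene by gene. They were chosen by their labels as the 3 H211 and 3 H82 control libraries, which are 6 of the 12 libraries of the study. Both lines are established human lines labelled WT, and were grown in RPMI medium with 10% FBS and penicillin and streptomycin. The controls carry PBS as their treatment label. The duration is 7 days in one label and 10 days in another. The other 6 libraries are the same lines given 1 µM ORY-1001, an inhibitor of the histone demethylase LSD1. Here those libraries enter only the estimate of the spread and a repeat of the line comparison. Each kind of tumour is represented by a single line, so a difference between the lines cannot be told apart from a difference between the kinds. The labels do not say that replicates came from separate cultures. The p-values below therefore rest on how far these libraries spread, and part of that spread may be technical.

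Small cell lung cancer is a neuroendocrine tumour that is commonly sorted by its leading transcription factor, NEUROD1 and POU2F3 among them. NEUROD1 is a basic helix-loop-helix factor of neurons and endocrine cells. POU2F3 is a POU-domain factor needed for tuft cells, the chemosensory cells of epithelia that use taste receptors, the channel TRPM5 and the structural proteins villin and advillin. Tumours led by POU2F3 are known for tuft cell genes and for low levels of neuroendocrine ones.

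Values are on the TPM scale, a relative transcript level corrected for transcript length, that appears to have been rescaled per library before deposit. A log2 difference is that of mean log2(TPM + 1), H211 minus H82, and understates the change of genes with low levels. Of 56508 symbols, 15456 had a level of at least 1 in at least 3 of the 12 libraries and were tested with limma (Benjamini-Hochberg adjustment over all of them). A 2-fold call below means an adjusted p under 0.05 and a log2 difference of at least 1 in size. Pearson correlations of log2 levels over the tested genes were 0.989 to 0.991 among the H211 controls, 0.989 to 0.991 among the H82 controls and 0.786 to 0.793 between the lines. For 12622 of the tested genes (81.7%) the control libraries of the lines did not overlap. An adjusted p under 0.05 alone was met by 80.5% of tested genes, with 39.7% higher in H211 and 40.8% higher in H82. Either direction together, 37.9% of tested genes had a 2-fold call, 18.7% higher in H211 and 19.2% higher in H82. The median log2 difference over all tested genes was -0.02. The counts of gene groups below are to be read against those percentages. The groups were chosen with earlier results of these data known, so their counts are descriptions and not tests.

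Low levels in the lower line need care. Of 1378 genes with a mean of at least 100 in H211, 1 was listed at 0 in H82 and the lowest other level was 0.483% of that in H211. In 43 of them the H82 level was under 2% of the H211 level. Of 1355 genes with a mean of at least 100 in H82, 29 were under 2% in H211, with 0.953% the lowest above 0. Levels under 2% of the other line may be trace reads of the other line or true low expression, which was not tested, and a fold that rests on such a level describes the files only. Read depth is not given by the files, so no counting interval can be set. In bulk RNA, fewer cells of a type and less RNA per cell cannot be told apart.

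The labelled types were checked against their markers. The 5 markers fixed for the lines all had 2-fold calls: POU2F3 (121.9-fold), ASCL2 and EPCAM were higher in H211, and NEUROD1 and RTN1 were higher in H82. YAP1 was at 0.914 in H211 and 0.0628 in H82, a difference below 2-fold on the log2(TPM + 1) scale (0.85, adjusted p = 7.61e-06). Markers of blood cells were not equal among the H211 controls: MPO was at 24.27 in replicate 1, and LYZ was at 22.99 and S100A8 at 58.08 in replicate 2. The 12 myeloid markers summed to between 3.29 and 160.0 in the H211 controls and to between 0.556 and 1.03 in the H82 controls, and ELANE was at 0 in every control library. Of the 7 that were tested, 1 (CD14) had a 2-fold call. The libraries given ORY-1001 held such markers too: in H82, MPO was at 13.8 ± 9.03 and LYZ at 11.7 ± 9.77, and in H211 they were at 2.99 ± 4.83 and 5.56 ± 9.08 (SD, n = 3 each). There MPO was called higher in H82 (log2 difference -2.47, adjusted p = 0.0449 by limma). Their part in the comparison of the treated lines was not tested. The erythroid markers summed to 45.8 to 118.5 in H211 and 46.0 to 60.5 in H82, with no call among the 5 tested. Of the other marker lists, 1 of 1 tested lymphoid marker (CD79B), 1 of 2 fibroblast markers (DCN), 1 of 2 lung epithelial markers (FOXJ1) and 2 of 3 YAP1 markers (CYR61 and CTGF) were higher in H211. No endothelial marker passed the filter. Without the 2 H211 control libraries that were high in MPO or LYZ, only replicate 3 was left as an H211 control. The median log2 difference over all tested genes was then -0.028, against -0.023 with them. Calls from that fit are not given, because a single library shows no spread of its own.

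The promoter sequences of 5 genes are shown because they stand in front of members of the groups that set the lines apart. They also hold short motifs of factor families with members that differed between the lines. The genes and the motifs were chosen after the values had been seen. Each sequence is RefSeq's on GRCh38.p14, the 250 bases before the annotated start, written 5′ to 3′ on the strand of the gene. By GENCODE 29, which starts RGS13 at 192636138, the last bases of its window lie inside the gene. Capitals mark the motif named for that gene. RGS13 (chr1:192635897-192636146, plus strand) holds CATCTG and CAGATG, 139 and 126 bases before the start. PLCG2 (chr16:81738791-81739040, plus strand) holds CAGATG 97 bases before it. GNAT3 (chr7:80512065-80512314, minus strand) holds CAGATG 30 bases before it. PDE6A (chr5:149944794-149945043, minus strand) holds TAATCC 72 bases before it. NEUROG1 (chr5:135535965-135536214, minus strand) holds ATGCAAAT 140 bases before it.
RGS13: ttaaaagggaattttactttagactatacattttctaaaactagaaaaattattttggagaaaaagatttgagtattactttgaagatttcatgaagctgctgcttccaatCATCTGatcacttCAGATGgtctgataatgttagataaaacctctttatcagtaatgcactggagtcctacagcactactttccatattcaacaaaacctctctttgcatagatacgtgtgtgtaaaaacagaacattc
PLCG2: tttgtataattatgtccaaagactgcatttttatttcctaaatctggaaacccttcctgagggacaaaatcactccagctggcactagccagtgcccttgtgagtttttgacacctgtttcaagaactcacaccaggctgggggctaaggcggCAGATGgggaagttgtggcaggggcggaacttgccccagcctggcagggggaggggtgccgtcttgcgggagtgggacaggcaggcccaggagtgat
GNAT3: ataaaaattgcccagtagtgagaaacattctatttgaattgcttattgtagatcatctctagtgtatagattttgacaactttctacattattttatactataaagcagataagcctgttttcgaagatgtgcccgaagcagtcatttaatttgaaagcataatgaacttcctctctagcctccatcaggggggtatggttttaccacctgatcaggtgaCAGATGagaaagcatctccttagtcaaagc
PDE6A: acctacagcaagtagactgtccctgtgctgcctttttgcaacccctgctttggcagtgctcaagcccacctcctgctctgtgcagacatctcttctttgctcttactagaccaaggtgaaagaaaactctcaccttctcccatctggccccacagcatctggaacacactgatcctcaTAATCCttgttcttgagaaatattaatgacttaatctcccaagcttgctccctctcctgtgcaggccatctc
NEUROG1: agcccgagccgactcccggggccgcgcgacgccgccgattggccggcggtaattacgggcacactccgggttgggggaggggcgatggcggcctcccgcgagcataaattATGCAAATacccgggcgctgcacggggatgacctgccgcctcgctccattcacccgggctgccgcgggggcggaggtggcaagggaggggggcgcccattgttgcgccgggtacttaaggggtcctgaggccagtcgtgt

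CAGATG is a form of the E-box CANNTG, the sequence bound by basic helix-loop-helix factors such as NEUROD1 and ASCL2. TAATCC is the core bound by the homeobox factors OTX2 and CRX. ATGCAAAT is the octamer bound by POU factors of the POU2F family. It is shown for NEUROG1, which was higher in H82, although POU2F3 was higher in H211. Each of these motifs was searched on both strands in 27195 promoters of this length, of which 11017 belonged to tested genes. CAGATG stood in 12.2% of all promoters, 7.92% of those of tested genes, 7.60% of those with a 2-fold call higher in H211 and 10.1% of those higher in H82. In the gene lists, only tested members whose promoter was found were counted. Among the tuft cell effector genes CAGATG stood in 6 of 25 promoters (24.0%: PLCG2, GNAT3, TAS1R1, CHAT, RGS13 and ANXA1). Among the photoreceptor genes it stood in 4 of 25. TAATCC stood in 5.65% of all promoters, 3.81% of those of tested genes, 3.27% of those higher in H211 and 4.78% of those higher in H82. Among the photoreceptor genes it stood in 6 of 25 promoters (24.0%: CRX, GUCA1A, PDE6A, OPN1SW, RPGRIP1 and CRB1), and among the tuft effectors in 0 of 25. The octamer stood in 1.66% of all promoters, 1.41% of those of tested genes, 2.16% of those higher in H211 and 1.43% of those higher in H82. It stood in 2 of 25 promoters of tuft effectors (8.0%: FYB1 and AZGP1), 1 of 7 of tuft cell factors (HMX2), 2 of 27 of neural factors (NEUROG1 and SOX12) and 0 of 25 of photoreceptor genes. 3 other E-box forms were searched. CACGTG stood in 6.50% of all promoters, 9.14% of those of tested genes and 3 of 25 of those of tuft effectors. For CATATG the shares were 2.58%, 1.07% and 0 of 25. For CAGCTG they were 13.8%, 12.6% and 3 of 25. All the motif matches given here describe letters in a window and were not tested.

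**Figure D1:**
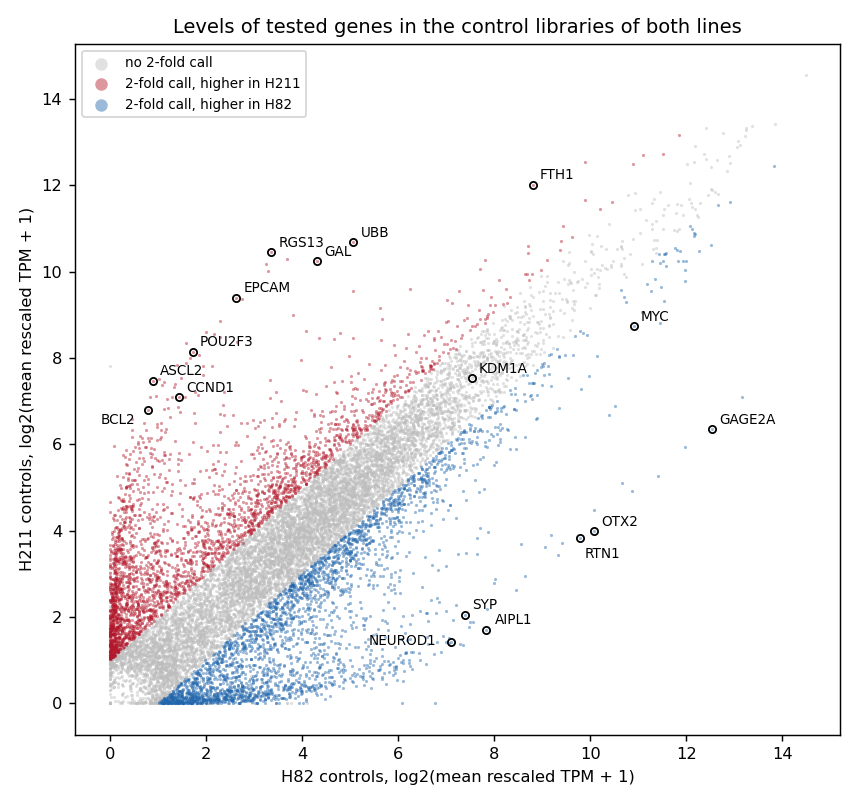
Mean levels of the tested genes in the H82 controls (horizontal axis) and the H211 controls (vertical axis), each as log2(mean rescaled TPM + 1), with 3 libraries per line. Each point is a gene, and colours mark the 2-fold calls; RGS13, UBB and GAL stand far above the diagonal, OTX2, RTN1 and GAGE2A far below it, and KDM1A lies on it.

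The plot of levels in both lines shows 2 wide wings. A log2 difference of at least 4 in size was found for 209 genes called higher in H211 and 172 called higher in H82. For a size of at least 6 the numbers were 26 and 9. The 12 genes furthest above H82 included RGS13, LRMP, EPCAM, C11orf53, NMU, AVIL, GPX2, ASCL2, SPINT2, CD8B and BMX, together with RPS2P5, a pseudogene row that near-identical copies make uncertain. The 12 genes furthest above H211 included AIPL1, OTX2, RTN1 and EFS, 6 rows of the GAGE family and the small RNA row RF02164.

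RGS13 is a regulator of G-protein signalling that speeds the switching off of G-alpha subunits; the gene lies on chromosome 1 from 192636138 to 192660306 (GRCh38, GENCODE 29, plus strand). It was at 1349, 1383 and 1467 in the H211 controls and at 11.4, 5.67 and 10.7 in the H82 controls. All H211 libraries stood above all H82 libraries. The log2 difference was 7.15 (SE 0.18, adjusted p = 8.54e-12 by limma), and the ratio of the means, 1399 ± 60.9 over 9.24 ± 3.11 (SD, n = 3 each), was 151-fold. The H82 level was 0.661% of that in H211. LRMP, an endoplasmic reticulum membrane protein of lymphoid and taste cells, was at 1122, 1154 and 1210 in H211 and at 8.89, 6.54 and 10.0 in H82, which is 137.0-fold. NMU, which encodes the neuropeptide neuromedin U, was at 1021, 1048 and 1019 against 9.79, 8.90 and 7.64 (117-fold, adjusted p = 3.29e-14 by limma). The libraries of the lines did not overlap for either gene.

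The factors of tuft cells were nearly all higher in H211. Of 16 listed, 11 were tested, and 10 had a 2-fold call higher in H211 with 0 in the other direction; their median log2 difference was 4.43. C11orf53, also called POU2AF2, encodes a coactivator of POU2F3. It was at 318.7, 325.0 and 326.2 in H211 and 1.72, 1.75 and 2.58 in H82. The groups stood apart with a log2 difference of 6.76 (SE 0.12, adjusted p = 8.74e-13 by limma). SPIB, an ETS factor of lymphoid and tuft cells, was at 60.5, 57.7 and 53.9 against 0.394, 0.187 and 0.202, a 219.7-fold ratio with the H82 level under 1 in each library. FOXI1, the forkhead factor of ionocytes, was at 31.9, 33.9 and 32.0 against 0.162, 0.439 and 0.541 (85.7-fold). SOX9, a factor of epithelial progenitors, had means of 24.9 ± 1.85 and 0.203 ± 0.0280, and RUNX1 of 15.7 ± 2.29 and 0.330 ± 0.144 (SD, n = 3 each). FOXE1 was the member without a call, at 0.652 in H211 and 0.458 in H82 (adjusted p = 0.0858).

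The effectors of tuft cells followed in larger number but with exceptions. Of 46 listed, 33 were tested, with 22 higher in H211 and 5 higher in H82 by 2-fold call, and a median log2 difference of 3.96. Taste transduction runs from receptors through a G protein and phospholipase C to TRPM5. TAS1R3, the shared subunit of sweet and umami receptors, had means of 55.4 in H211 and 0.549 in H82. GNAT3, the alpha subunit gustducin, was at 64.5, 61.2 and 69.9 against 0.413, 0.350 and 0.742, a log2 difference of 5.47. GNG13, its gamma subunit, had means of 159.6 ± 6.91 and 1.54 ± 0.404 (SD, n = 3 each). PLCB2, the phospholipase of this pathway, was at 76.8 ± 1.47 against 3.92 ± 0.953, or 19.6-fold. TRPM5, the cation channel at its end, was at 39.5, 38.5 and 37.4 in H211 and 0.226, 0.136 and 0.585 in H82 (122-fold, adjusted p = 3.65e-12 by limma). GNB3, the beta subunit used with gustducin and in cone photoreceptors, went the other way: it was at 1.43, 1.61 and 2.03 in H211 and at 40.1, 39.4 and 36.1 in H82, which is 22.8-fold higher in H82. The pathway therefore was not uniformly higher in H211, and its beta subunit stood with the photoreceptor genes below.

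Structural and signalling genes of tuft cells gave the same picture. AVIL, or advillin, an actin-bundling protein, was at 663.4, 653.4 and 661.3 in H211 and at 6.95, 3.57 and 6.56 in H82. VIL1, or villin, had means of 51.0 ± 2.38 and 0.241 ± 0.0560 (212-fold). PLCG2, a phospholipase that acts downstream of tyrosine kinases, was at 168.7, 165.5 and 165.9 against 1.75, 1.16 and 1.71 (log2 difference 6.05). BMX, a TEC-family tyrosine kinase, was at 224.3, 225.7 and 231.8 in H211 and between 1.46 and 1.75 in H82. PTGS1 and PTGS2, the cyclooxygenases, had means of 11.6 and 35.4 in H211 and 0.468 and 0.745 in H82. KIT, the receptor of stem cell factor, was 106-fold higher in H211 at 17.1 ± 0.521. In the other direction, CHAT, which makes acetylcholine, was 2.33-fold higher in H82 (14.9 ± 0.730 against 6.41 ± 0.414, SD, n = 3 each). CHRNA3, a nicotinic receptor subunit, was 18.5-fold higher in H82, though reads could be shared with the overlapping CHRNA5.

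Epithelial genes were almost all higher in H211. Of 44 tested members of 58, 38 had a 2-fold call higher in H211 and 0 higher in H82, with a median log2 difference of 3.52. MAL2, a protein of apical transport, was at 375.9, 382.3 and 357.3 in H211 and 2.89, 3.20 and 4.37 in H82. KRT8, a keratin of simple epithelia, was at 331.8, 332.4 and 327.4 against 5.09, 4.32 and 6.29, or 63.2-fold. SPINT2, an inhibitor of membrane serine proteases, was at 464.3, 453.2 and 471.5 against 3.79, 3.38 and 4.55. Every H211 library was far above every H82 library for the 3 genes. CDH1, or E-cadherin, had means of 79.7 ± 5.07 and 0.681 ± 0.323 (117-fold). The regulators of epithelial identity ELF3 (83.4 against 0.966), ESRP1 (48.3 against 0.961), GRHL2 (16.5 against 0.319) and OVOL2 (16.04 against 0.218) also had 2-fold calls. DSG2, a desmosomal cadherin, was at 28.99 in H211 and 27.14 in H82, with no call (adjusted p = 0.131).

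Genes of mesenchyme and matrix were divided between the lines, with 14 of 43 tested higher in H211, 16 higher in H82 and a median log2 difference of 0.44. MMP2 (65.5-fold), TIMP1 (16.2-fold), LAMB1 (15.2-fold) and the repressor of E-cadherin ZEB2 (37.9-fold) were higher in H82. VIM, or vimentin, was 5.68-fold higher in H82 at 39.3 ± 1.20. CDH2, or N-cadherin, the neural and mesenchymal cadherin, was instead at 48.9, 47.0 and 42.0 in H211 and 3.15, 3.38 and 3.71 in H82, or 13.5-fold higher in H211. LAMC1 was 12.3-fold higher in H211. H211 thus carried higher levels of both E-cadherin and N-cadherin. The sign of this list's median depended on the filter for low values.

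**Figure D2:**
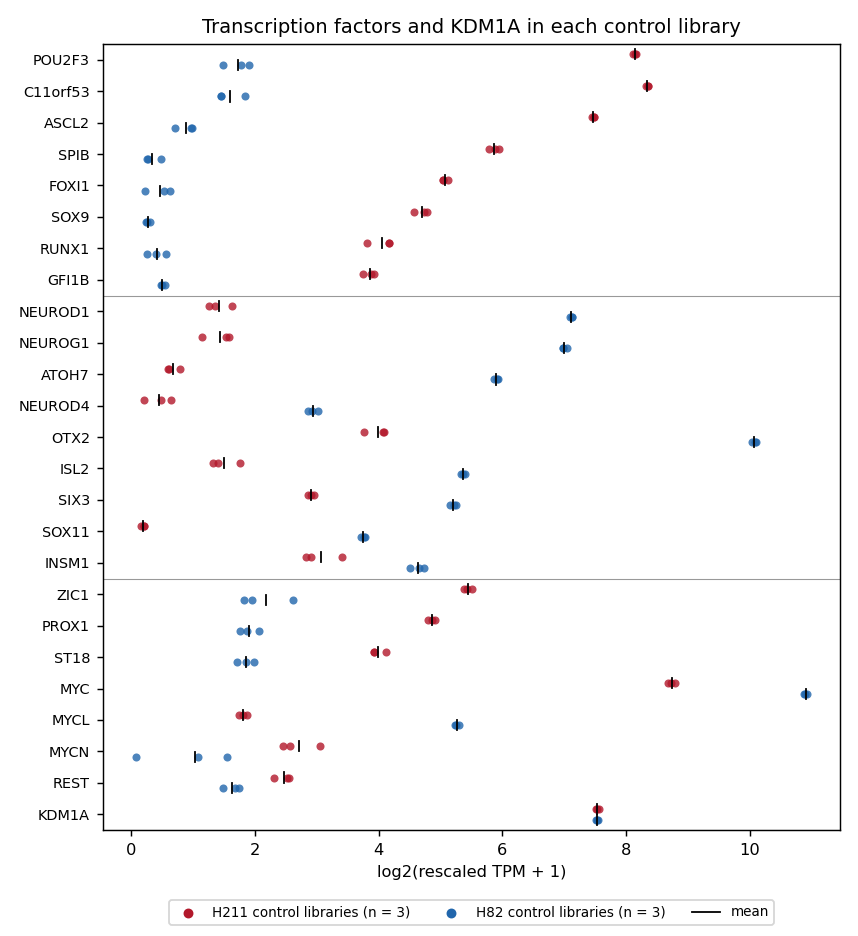
Levels of transcription factors and of KDM1A in each control library, as log2(rescaled TPM + 1), with 3 points per line and a tick at their mean. NEUROG1, ATOH7 and OTX2 are high in the H82 libraries, and POU2F3, ASCL2, SPIB and FOXI1 are high in the H211 libraries, with no overlap between lines.

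Neural transcription factors were mostly, but not all, higher in H82. Of 65 listed, 35 were tested, with 20 higher in H82, 8 higher in H211 and a median log2 difference of -1.59. NEUROG1, a proneural factor upstream of NEUROD1 in sensory ganglia, was at 131.2, 125.6 and 125.6 in H82 and at 1.21, 1.90 and 1.98 in H211. Its log2 difference was -5.59 (SE 0.12, adjusted p = 2.46e-12 by limma), beside -5.70 for NEUROD1 itself. ATOH7, the factor of retinal ganglion cell fate, was at 59.0, 59.7 and 57.0 against 0.527, 0.501 and 0.733, or 99.8-fold. OTX2, a homeobox factor of forebrain and retina, lies on chromosome 14 from 56799905 to 56810479 (GRCh38, GENCODE 29, minus strand). It was at 1085, 1098 and 1052 against 12.62, 16.03 and 15.88. Each of NEUROG1, ATOH7 and OTX2 was under 2% of its H82 level in H211.

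Other retinal and neural factors had the same direction at lower levels. ISL2 had means of 40.3 in H82 and 1.83 in H211, SIX3 of 35.9 and 6.50, and MYT1 of 9.44 and 0.196. EBF1 (4.76 against 0.0488) and POU4F2 (3.30 against 0.0197) were low in H82 and lower in H211. Members higher in H211 included ZIC1, a zinc-finger factor of dorsal neural tube, at 42.1, 40.5 and 44.5 in H211 and 2.86, 2.55 and 5.10 in H82 (12.1-fold). PROX1 was 10.2-fold higher in H211, and ST18, a relative of MYT1, was 5.70-fold higher. POU3F2, or BRN2, was at 3.01 in H211 and 3.17 in H82 (adjusted p = 0.531). H211 thus had a smaller set of neural factors at the higher level, led by ZIC1 and PROX1.

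**Figure D3:**
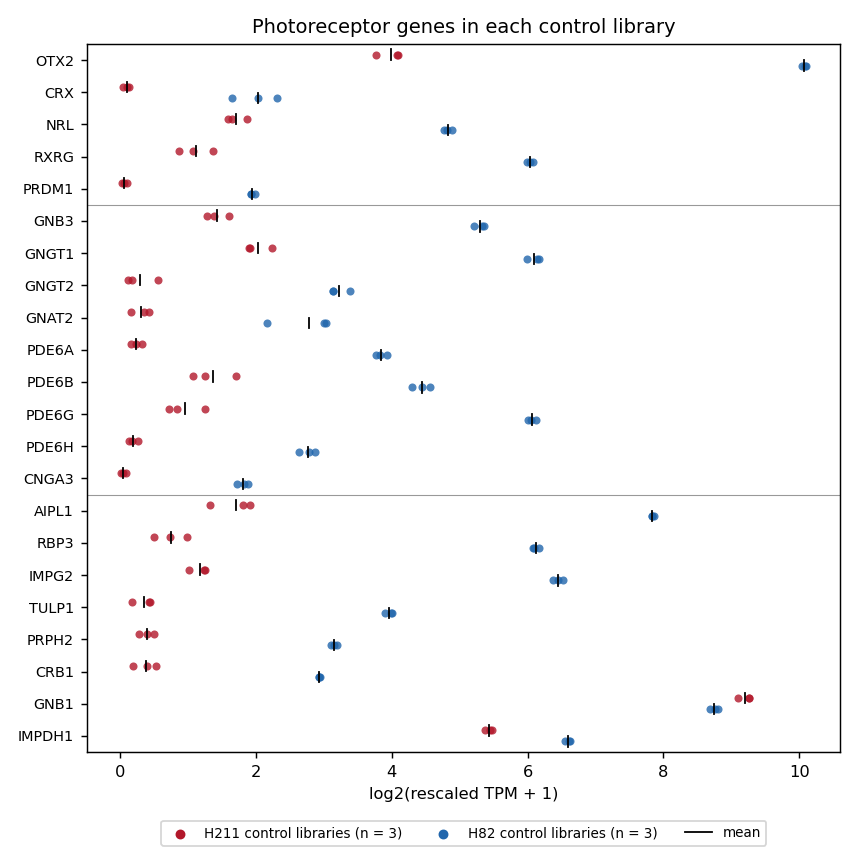
Levels of photoreceptor genes in the 3 control libraries of each line, as log2(rescaled TPM + 1), with a tick at the mean. AIPL1, IMPG2, RBP3 and PDE6G stand between 63.2 and 230.8 TPM in the H82 libraries and at 2.78 TPM or below in the H211 libraries.

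Photoreceptor genes were a large group on the H82 side. Rods and cones detect light through an opsin, the G protein transducin and a phosphodiesterase, and NRL, CRX and OTX2 are the factors known to direct their genes. Of 45 listed, 32 were tested, with 24 higher in H82, 0 higher in H211 and a median log2 difference of -2.49. AIPL1, the chaperone of the phosphodiesterase, lies on chromosome 17 from 6393693 to 6435199 (GRCh38, GENCODE 29, minus strand). It was at 230.8, 226.2 and 225.8 in H82 and 1.498, 2.781 and 2.502 in H211. The log2 difference was -6.15 (SE 0.15, adjusted p = 9.73e-12 by limma), a 100.7-fold ratio. RBP3, the retinoid carrier between photoreceptors and pigment epithelium, was at 70.9, 67.0 and 67.5 against 0.408, 0.662 and 0.975. IMPG2, a proteoglycan of the photoreceptor matrix, had means of 86.1 ± 4.21 and 1.26 ± 0.198 (SD, n = 3 each). No H211 library came near an H82 library in these genes.

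Among the phosphodiesterase subunits, PDE6G was at 68.8, 65.5 and 63.2 in H82 and at 0.648, 1.37 and 0.796 in H211. PDE6A, whose promoter is shown above with TAATCC, was at 14.3, 13.2 and 12.6 against 0.249, 0.113 and 0.178, or 74.2-fold. PDE6B had means of 20.7 and 1.60, and the cone subunit PDE6H of 5.78 and 0.141. Rod and cone members thus stood together. The transducin subunit GNGT1 was 22.0-fold higher in H82 (67.5 ± 4.42 against 3.07 ± 0.562, SD, n = 3 each), while GNB1, a beta subunit of many tissues, was slightly higher in H211 (log2 difference 0.46). RXRG, the nuclear receptor of cones, was 55.3-fold higher in H82. Of the factors, NRL was at 26.1, 28.5 and 27.3 in H82 and 2.13, 2.65 and 2.00 in H211, and CRX was low in both lines at 3.09, 2.15 and 3.98 against 0.0309, 0.102 and 0.0783. ROM1 (adjusted p = 0.0882) had no call. The levels of the photoreceptor genes by library show that the 3 H82 libraries differed little among themselves.

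Genes of secretory granules and synaptic vesicles were higher in H82, with 30 of 39 tested called in that direction, 2 in the other, and a median log2 difference of -2.21. SYP, or synaptophysin, the vesicle protein used in diagnosis, was at 167.7, 160.9 and 170.8 in H82 and 3.03, 2.74 and 3.66 in H211 (52.95-fold, adjusted p = 1.74e-12 by limma). CHGA, or chromogranin A, was at 99.1, 97.2 and 98.0 against 0.966, 1.12 and 2.75. CPLX1, a regulator of vesicle fusion, was at 57.9, 58.0 and 59.6 against 0.245, 0.359 and 2.20. Replicate 3 was the highest H211 library for the 3 genes, yet far below H82. SCG3 (45.3-fold), the vesicle priming factor CADPS (57.1-fold) and the prohormone-processing enzyme CPE (7.24-fold) were also higher in H82. SV2A, a vesicle glycoprotein, was at 25.7 ± 1.14 in H211 and 25.4 ± 0.740 in H82 (adjusted p = 0.825). DNAJC5, a chaperone of vesicle release, was 2.71-fold higher in H211.

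Neuropeptides themselves did not follow the granule genes. Of 40 peptides and receptors listed, 13 were tested, with 6 higher in H211, 4 higher in H82 and a median log2 difference of 0.80. GAL, which encodes galanin, was at 1213, 1217 and 1187 in H211 and 20.8, 16.9 and 18.6 in H82, or 64.3-fold. The calcitonin genes CALCA (8.49 ± 1.61 against 0.141 ± 0.128) and CALCB (29.4 ± 1.57 against 3.45 ± 0.287) were higher in H211, with the caution that the 2 are close paralogues. NMB, neuromedin B, was at 11.6 in H211 and 11.3 in H82 (adjusted p = 0.672). The summed level of the listed peptides and receptors was 2269 to 2324 in the H211 controls and 53.7 to 56.2 in the H82 controls, and NMU and GAL made up most of it in H211.

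Cytoskeletal and other structural genes of neurons were higher in H82 for 29 of 42 tested members and higher in H211 for 6 (median log2 difference -1.71). NEFM, the medium neurofilament, was at 55.2, 55.7 and 52.5 in H82 and 1.323, 0.4491 and 1.108 in H211. STMN2, a tubulin-binding protein of growth cones, was 59.9-fold higher in H82, and CRMP1 was 25.2-fold higher. KIF1A, the motor that carries synaptic vesicle precursors, went against them at 156.4, 145.8 and 135.9 in H211 and 2.11, 1.60 and 3.52 in H82 (60.6-fold higher in H211, adjusted p = 1.39e-10 by limma). MAP2 was 4.40-fold higher in H211. UCHL1, another diagnostic marker, was high in both lines, at 631 in H211 and 736 in H82. Adhesion and guidance genes were divided, with 9 of 30 tested higher in H211, 14 higher in H82 and a median of -0.98. NRXN3, a presynaptic neurexin, was at 46.9, 47.9 and 46.9 in H211 and 0.378, 0.312 and 0.692 in H82, and the guidance genes SLIT2 (51.3-fold) and EPHB2 (47.5-fold) were likewise higher in H211. CADM1, a synaptic adhesion molecule, was 41.5-fold higher in H82. NCAM1, or CD56, differed by -0.22 on the log2 scale.

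Ion channel genes were higher in H82 for 22 and in H211 for 12 of 47 tested, with a median log2 difference of -0.64. The kainate receptor subunit GRIK3 (59.6-fold) and the calcium channel subunit CACNA2D1 (22.4-fold) were higher in H82. Beside TRPM5, the potassium channel KCNJ11 (39.6 ± 2.02 against 3.63 ± 0.504) was higher in H211. The sign of this list's median also depended on the filter for low values.

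**Figure D4:**
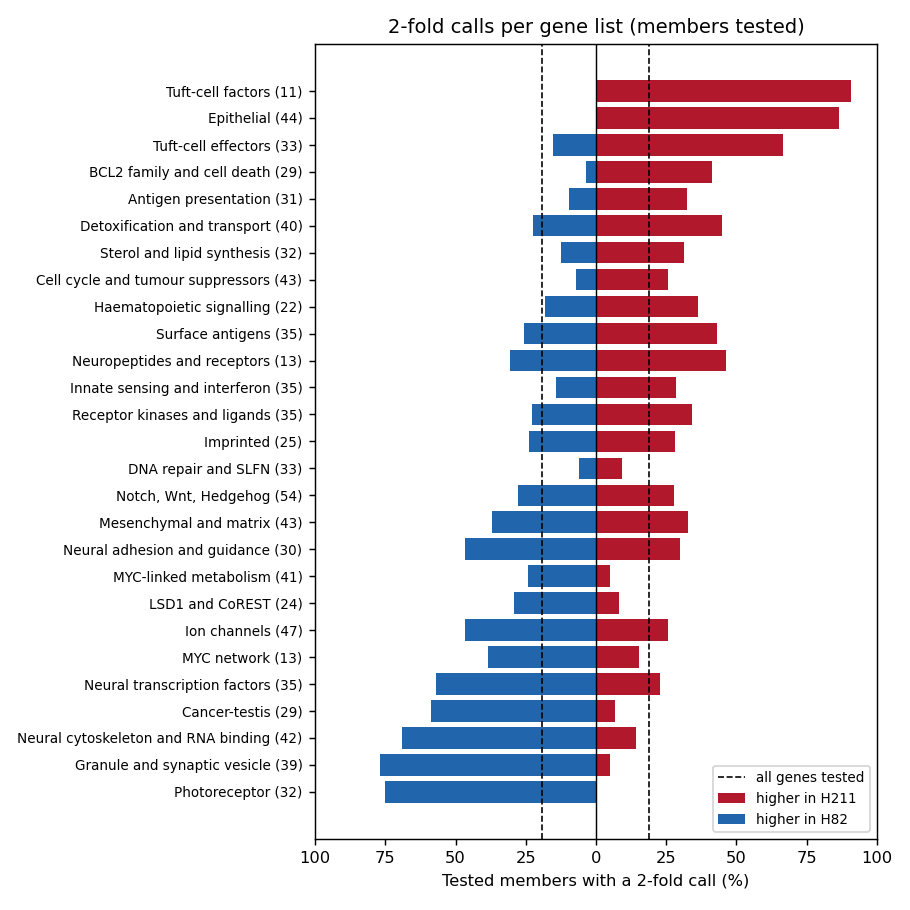
Counts of 2-fold calls in each gene list, as a percentage of its tested members, higher in H211 to the right and higher in H82 to the left, with dashed lines at the percentages over all tested genes (18.7 and 19.2). Tuft cell factors and epithelial genes have calls in the H211 direction alone and photoreceptor genes in the H82 direction alone.

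MYC and its relatives were unevenly placed. Of the 13 genes of the MYC network, 5 had a 2-fold call higher in H82 and 2 higher in H211, with a median log2 difference of -0.44. MYC was at 443.5, 424.9 and 411.2 in H211 and 1914, 1945 and 1885 in H82. PVT1, the long noncoding RNA gene beside MYC, was at 102.3, 91.3 and 112.0 in H211 and 1226, 1429 and 1366 in H82. Its ratio was 13.2-fold (log2 difference -3.71, adjusted p = 3.70e-12 by limma), beside 4.49-fold for MYC. The small RNA row RF02164, which overlaps PVT1, was at 84.5, 150.3 and 172.9 against 9544, 8907 and 8817, and reads of PVT1 and of this row cannot be told apart. MYCL was 15.0-fold higher in H82. MYCN was 5.41-fold higher in H211 at 4.48, 4.90 and 7.32 against 1.923, 1.111 and 0.05559, and MAX, the partner of all of them, was at 150 against 79.4 (log2 difference 0.91). Of 41 metabolic and ribosome assembly genes known as MYC targets, 10 were higher in H82 and 2 higher in H211, with a median of -0.29. Among them were PKM (4.66-fold), NPM1 (3.37-fold) and IMPDH2 (2.76-fold), all higher in H82. AMD1 (2.18-fold) and NOP56 (2.09-fold) were the 2 higher in H211, and 29 had no 2-fold call. The share of this list higher in H82 was 24.4%, against 19.2% over all tested genes.

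**Figure D5:**
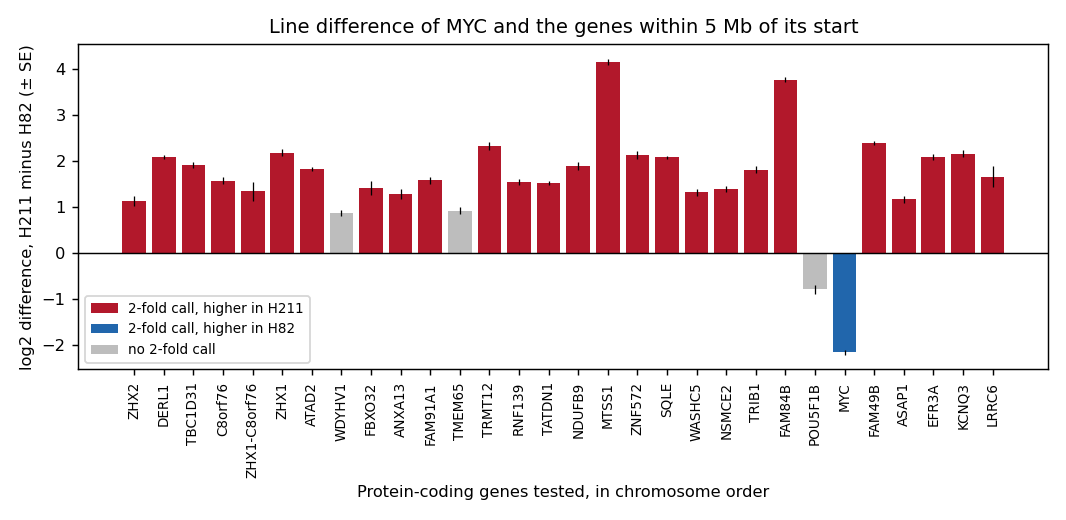
Log2 difference (H211 minus H82, vertical axis) of MYC and of the tested protein-coding genes within 5 Mb of its start, in chromosome order, with bars for the difference and lines for its SE. MYC and POU5F1B lie below 0 and the other 28 genes above it.

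Most of the protein-coding genes tested around MYC did not share its direction. Within 5 Mb on either side, 29 other protein-coding genes were tested, 24 before MYC and 5 after it in chromosome order. Of these, 26 had a 2-fold call higher in H211, 0 higher in H82 and 3 neither (WDYHV1, TMEM65 and POU5F1B), and the median log2 difference was 1.66; this window was chosen after the values had been seen, and PVT1 and RF02164, as noncoding rows, are not among the 29. MTSS1, an actin and membrane regulator, was at 183.3, 173.9 and 176.0 in H211 and 9.48, 8.08 and 9.74 in H82 (19.5-fold), and FAM84B was 14.9-fold higher in H211. SQLE, the sterol epoxidase, lies in the same stretch and was 4.25-fold higher in H211. POU5F1B, whose start lies nearest to that of MYC among the 29 (413 kb before it), did share the direction of MYC. It was at 2.55 in H211 and 5.17 in H82 (log2 difference -0.80, adjusted p = 9.74e-06 by limma), short of a 2-fold call. PVT1 and RF02164, beside MYC, were higher in H82 too.

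Other stretches of neighbouring genes moved together. Runs of consecutive tested protein-coding genes with a 2-fold call in 1 direction were listed by position (GRCh38, GENCODE 29). The longest held 15 genes on chromosome 11 from 68683779 to 71801236, all higher in H211, with a median log2 difference of 2.16; it held GAL, CCND1, MYEOV, CPT1A, FADD, CTTN and DHCR7. CCND1, or cyclin D1, was at 145.1, 135.3 and 123.3 in H211 and 1.58, 0.751 and 2.77 in H82, and MYEOV was 80.3-fold higher. On chromosome 19, from 52269571 to 52897693, 14 zinc-finger genes were higher in H211 (median 1.86), with ZNF600 at 47.6-fold. On chromosome 12, from 10604190 to 11895402, 12 genes were higher in H211 (median 2.98), with the bitter taste receptor TAS2R42 at 36.1, 41.5 and 40.9 against 0.436, 0.0797 and 0.272. PRR4, PRH1 and AC006518.7 in that run overlap, so their reads cannot be told apart.

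Runs higher in H82 included 11 genes on chromosome 14 from 23125295 to 23435718 (median log2 difference -2.76). It held EFS, an adaptor of SRC-family kinases, at 160.6, 147.7 and 157.0 in H82 and 1.24, 1.53 and 2.04 in H211 (96.8-fold). SLC22A17 (108-fold) and the cardiac myosin gene MYH6 (75.8-fold) lie in the same run. A run of 11 genes on chromosome X from 49322057 to 49833973 held the GAGE family (median -5.99). By whole chromosome, the median was -0.85 over 215 tested genes on chromosome 13, where 40.9% had a 2-fold call higher in H82, and -0.82 over 416 on chromosome 15, with 42.1%. Chromosome 11 had a median of 0.56 with 30.8% higher in H211, and chromosome 18 a median of 0.40 with 29.7%. Over the 12787 protein-coding genes counted by chromosome the median was -0.03, with 17.9% and 19.5% higher in H211 and H82.

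Cancer-testis genes, which are normally limited to the germ line, were higher in H82 for 17 of 29 tested and higher in H211 for 2, with a median log2 difference of -1.40. GAGE2A was at 5971, 6029 and 5824 in H82 and 75.2, 81.3 and 85.7 in H211. GAGE12E was listed at 0 in the 3 H211 libraries and at 121.5, 122.2 and 80.9 in H82. The GAGE copies are nearly identical, so their reads can be divided among rows and the separate values are uncertain. PAGE1 was 59.2-fold and XAGE1A 47.1-fold higher in H82, and PRAME was at 275.5 ± 3.94 against 64.9 ± 0.459. MAGEA3 was high in both lines, at 166 in H211 and 133 in H82. LAGE3, which is expressed in most tissues, was 2.78-fold higher in H211.

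The regulators of cell division and of its checkpoints had a 2-fold call in 14 of 43 tested, 11 higher in H211 and 3 higher in H82 (median log2 difference 0.22). These were 25.6% and 6.98%, against 18.7% and 19.2% of all tested genes. RB1, a tumour suppressor that small cell lung cancer commonly loses, was at 11.7, 11.6 and 10.2 in H211 and 2.40, 1.29 and 1.40 in H82 (6.596-fold, adjusted p = 1.78e-07 by limma). CDKN2A, the locus of p16, was higher in H82 at 297.4, 302.8 and 307.3 against 101.6, 100.5 and 108.5. The lines did not overlap for either gene; RB1 overlaps LPAR6, and the strand of the reads is not given. Of the D-type cyclins and their partners, CCND1 (79.2-fold) and CDK6 (3.47-fold) were higher in H211 and CCND2 (27.8-fold) in H82. CDKN1B, or p27, was 5.14-fold higher in H211, and the mitotic kinase AURKB was 4.81-fold higher in H82.

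Genes of cell death were higher in H211 for 12 of 29 tested and higher in H82 for 1 (median log2 difference 0.80). BCL2, the inhibitor of apoptosis targeted by venetoclax, lies on chromosome 18 from 63123346 to 63320128 (GRCh38, GENCODE 29, minus strand). It was at 108.8, 115.7 and 105.1 in H211 and 0.6048, 0.5431 and 1.047 in H82. The log2 difference was 6.01 (SE 0.11, adjusted p = 1.05e-12 by limma), a 150.2-fold ratio with the H82 level at 0.666% of that in H211. The proapoptotic BIK (93.8-fold) and the caspases CASP4 (65.8-fold) and CASP8 (26.2-fold) were also higher in H211, as was the adaptor FADD (4.37-fold). The other guardians differed less: BCL2L1 was at 82.4 against 44.6 (log2 difference 0.87), MCL1 at 52.3 against 42.9 (0.28), and XIAP had no call (adjusted p = 0.585). BCL2L2 was 2.90-fold higher in H82, but shares reads with the readthrough gene BCL2L2-PABPN1.

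Proteins of the cell surface that are studied as drug targets were higher in H211 for 15 of 35 tested and higher in H82 for 9 (median log2 difference 0.30). DLL3, the Notch ligand bound by tarlatamab, was at 132.9, 126.0 and 130.9 in H82 and 20.5, 22.1 and 21.1 in H211. SEZ6L2 (59.8-fold) and LY6E (33.7-fold) were higher in H82. MET (55.1-fold) and ERBB3 (29.3-fold), both receptor tyrosine kinases, were higher in H211. Among kinases and their ligands, 12 of 35 tested were higher in H211 and 8 higher in H82 (median 0.30). IGFBP2, which binds insulin-like growth factors, was at 565.4, 588.4 and 597.5 in H82 and 11.8, 12.3 and 17.6 in H211, or 42.0-fold. IGF1R was 2.56-fold higher in H82, and DDR2, a collagen receptor, was 48.0-fold higher.

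Notch, Wnt and Hedgehog genes were equally divided, with 15 of 54 tested higher in each line (median log2 difference 0.20). The Notch ligand DLL1 was at 62.4, 55.1 and 59.4 in H211 and 0.663, 0.706 and 1.03 in H82, opposite in direction to DLL3. JAG2 (43.0-fold) and HES2 (74.2-fold) were likewise higher in H211. RNF43, a ubiquitin ligase that removes Wnt receptors, was 56.5-fold higher in H211, while the receptor FZD2 (33.9-fold) and the secreted antagonist SFRP1 (73.0-fold) were higher in H82. CTNNB1, or beta-catenin, was at 233 and 215 (adjusted p = 0.223).

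Antigen presentation genes were higher in H211 for 10 of 31 tested and in H82 for 3 (median log2 difference 0.63). The peptide transporter subunit TAP2 had means of 31.7 ± 3.05 in H211 and 0.324 ± 0.328 in H82, and TAPBP, or tapasin, was 12.9-fold higher in H211. HLA-E, a ligand of natural killer cell receptors, went the other way at 17.5, 16.2 and 18.3 in H82 and 1.67, 5.56 and 1.81 in H211. The HLA genes are similar and variable in sequence, so its level is uncertain. Of 35 genes of innate sensing, 10 were higher in H211 and 5 in H82 (median 0.48). IFITM2 was 15.1-fold higher in H211, and BST2, or tetherin, was 11.9-fold higher in H82, as was NFKB2 (6.23-fold).

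For KDM1A, which encodes LSD1, no difference was detected: it was at 182.4, 184.0 and 187.4 in H211 and 181.9, 184.2 and 186.7 in H82, with a log2 difference of 0.00 (SE 0.04, adjusted p = 0.954). Of 24 genes of LSD1 and its complexes, 2 were higher in H211 and 7 in H82 (median -0.22). The DNA-binding partners GFI1 (57.9-fold) and GFI1B (32.5-fold) were those higher in H211. PHF21B, a reader protein of the complex, was 43.5-fold higher in H82.

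Enzymes and pumps that handle drugs and oxidants were higher in H211 for 18 of 40 tested and in H82 for 9 (median log2 difference 0.78). GPX2, a glutathione peroxidase of the gut epithelium, was at 379.8, 394.7 and 392.8 in H211 and 2.81, 2.95 and 3.19 in H82. GSTM1 (108-fold), AKR1C3 (93.5-fold) and NQO1 (24.6-fold) were likewise higher in H211, whereas CYP1B1 (15.7-fold) and GPX8 (45.5-fold) were higher in H82. Sterol synthesis genes were higher in H211 for 10 of 32 tested and in H82 for 4 (median 0.46), with DHCR7, the last step to cholesterol, at 5.20-fold. HSD17B7 and PMVK were 3.46-fold and 3.05-fold higher in H82. DNA repair and SLFN genes had a 2-fold call in 5 of 33 tested, with 3 higher in H211 and 2 in H82 (median 0.05). These were 9.09% and 6.06%, against 18.7% and 19.2% of all tested genes. SLFN13 was 134-fold higher in H211, and the repair enzyme MGMT was 7.13-fold higher in H82. SLFN11, which marks sensitivity to DNA-damaging drugs, was near 0 in both lines (0.240 and 0.00775, adjusted p = 0.0949). Signalling genes of blood cells were higher in H211 for 8 of 22 tested and in H82 for 4 (median 0.52); IL13RA1 (64.3-fold) and PIK3R5 (32.1-fold) were higher in H211 and DOCK8 (18.6-fold) in H82. Imprinted genes were higher in H211 for 7 of 25 and in H82 for 6 (median -0.06). MEST was at 226.3, 218.3 and 227.4 in H211 and 2.52, 4.21 and 1.81 in H82, and GNAS was 12.4-fold higher in H82. A further list of genes commonly discussed in this cancer had 7 of 19 tested higher in each line (median 0.62); among its members, INSM1 was 3.23-fold higher in H82.

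Differences in absolute level were largest in abundant genes. FTL, BCYRN1 and FTH1 had the largest differences in mean among those higher in H211, and FTL and FTH1 encode the ferritin chains, which store iron. FTL was at 5731, 6040 and 5962 in H211 and 935.1, 938.4 and 963.3 in H82. FTH1 was at 4211, 4152 and 3992 against 447.0, 442.0 and 445.9, or 9.26-fold. BCYRN1, a small noncoding RNA that resembles Alu repeats, was at 5915, 5594 and 5632 against 1475, 1708 and 2492 (3.02-fold), and its row is uncertain for that likeness. UBB, a polyubiquitin gene, was at 1623, 1591 and 1701 against 33.5, 32.7 and 31.3 (50.4-fold, adjusted p = 5.04e-12 by limma). The libraries of the lines did not overlap for these genes. TMSB10 (3.39-fold), ACTB (2.37-fold) and GLUL (3.08-fold) were also higher in H211. On the side of H82 stood ribosomal protein genes: RPL4 was at 5810, 5868 and 5794 against 1549, 1595 and 1590, RPL26 was 4.53-fold and RPL38 3.84-fold higher.

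Gene families were counted after the values had been seen, so they too are given as descriptions. Of 80 ribosomal protein genes tested, 27 had a 2-fold call higher in H82 and 0 in H211, with a median log2 difference of -0.63; under each other scaling tried the median stayed below 0. Of 217 zinc-finger genes on chromosome 19 whose symbols begin with ZNF, 81 were higher in H211 and 14 in H82 (median 0.70). Of 231 on other chromosomes the counts were 31 and 20 (median 0.11). All 9 metallothionein genes tested were higher in H211, with MT1G at 129.9, 133.7 and 156.8 against 2.504, 1.311 and 3.888, and a median of 2.90. HIST genes were higher in H211 for 16 of 42 and in H82 for 0 (median 0.80). HOX genes were higher in H211 for 12 of 23 and in H82 for 6 (median 1.02). Metallothionein and zinc-finger copies share sequence, which makes single rows uncertain.

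The line difference was repeated in the libraries given ORY-1001, which are other samples of the same lines. Of the 5852 genes with a 2-fold call in the controls, 5797 (99.1%) had the same sign there and 4564 (78.0%) a 2-fold call in the same direction, while 36.4% of tested genes had a 2-fold call between the treated lines. The tuft cell factors had 9 calls higher in H211 against 10 in the controls, the epithelial genes 38 in each, and the photoreceptor genes 25 higher in H82 against 24. Other lists kept fewer calls. The granule and vesicle genes had 22 calls higher in H82 against 30 in the controls, and the ion channel genes 13 against 22. Sterol synthesis genes had 3 calls higher in H211 and 6 higher in H82 there, against 10 and 4 in the controls, so the more frequent direction turned. Antigen presentation genes had 15 calls higher in H211 against 10. Whether any of these counts differ was not tested. RGS13 differed by 5.83 on the log2 scale there against 7.15 in the controls, and SPIB by 3.08 against 5.54. Tests of the change in these genes are not reported here. In 5 genes the 2-fold call was opposite, FEZ1, RBPMS, ECEL1 and MIR210HG among them.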

How the data were processed

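RNA of H211 and H82 cells was enriched with oligo(dT) beads, made into libraries with a NEBNext Ultra II kit and sequenced as read pairs, per the labels' protocols. The submitters' processing notes name Trimmomatic 0.36, STAR 2.5.2b, featureCounts, Subread 1.5.2, DESeq2, Salmon 1.1.0, sleuth 0.30.0, R 4.0.4 and build hg38; the order and purpose of each is not stated in what was used here. In the deposited file is a normalized signal for 56508 symbols in 12 libraries: values on a TPM scale that the authors appear to have rescaled per library, since the columns sum to between 967415 and 1111988 and not to a common total. The values are not counts, so depth per library is unknown and its effect on precision cannot be given. TPM had been planned for; the test was kept.

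From these, log2(value + 1) was fitted with limma 3.58.1 (R 4.3.3) with 4 group means over the 12 libraries and a trended variance, for genes of at least 1 in at least 3 libraries, with Benjamini-Hochberg adjustment. Folds are ratios of mean levels. Of the 56508 symbols, 55883 matched GENCODE 29 for positions. Date-like symbols (27 rows, 21 of them tested) were never named. Genes were named by rule: the 12 largest log2 differences in each direction (mean of at least 5 in the higher line, no overlap), the 10 largest differences in mean, up to 4 members per list and per run, list members against their list's majority, the markers, and the genes of the cancer list. Other members were named after their values had been seen, and some items are not reported here. The members and lists were chosen with earlier results of these data known. The fit was also run on simulated data in which few genes differed between the lines. That setting is unlike these data, so its outcome is not given as support for the calls. Alternatives changed the pseudocount, filter, scaling, variance model, libraries left out and a replicate block.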

Additional observations from a re-analysis of the deposited data

Results flagged for a closer look

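In 4 genes described here the difference between the lines had a 2-fold call in one direction in the controls and in the other under ORY-1001, and limma's interaction term, adjusted over all tested genes, tested the change. For FEZ1, an adaptor of axonal transport, the line difference was 2.97 higher on the log2 scale under ORY-1001 than in the controls (adjusted p = 1.63e-08). Its mean was 6.48 in the controls and 12.4 under ORY-1001 in H211, and 24.1 and 4.78 in H82. RBPMS, an RNA-binding protein, changed by 2.42 and ECEL1, a neuronal peptidase relative, by 2.28, with adjusted p-values of 0.000115 and 4.83e-06. Both were near or below 2 in H211 with and without the drug, and went in H82 from 4.74 to 0.324 and from 4.56 to 0.178. MIR210HG, the host RNA of a hypoxia-induced microRNA, changed by -3.55 (adjusted p = 2.27e-06), from 2.73 to 0.990 in H211 and from 0.471 to 8.37 in H82. The genes were found by their opposite calls, so the tests are not independent of the choice.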

How the results depend on the processing

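Of the counts over all genes, only a pseudocount of 5 moved any by more than 1.5 times: 1551 genes then had a 2-fold call higher in H211 and 1634 higher in H82, against 2884 and 2968. Leaving out single libraries gave 2875 to 2898 and 2954 to 3006. A limma test against 2-fold itself (treat) gave 2068 and 2172. Of the named genes, RPL24, MYCN, AMD1, NOP56, YAP1, IGF1R and REST were not called by it. Leaving out mitochondrial genes from the totals moved the median of all genes by 0.16, to 0.14, and gave 3448 and 2593. SLFN11 was called by limma with a pseudocount of 0.1 (adjusted p = 0.0208), library weights (0.0410) or without H211 replicate 3 (0.0252). KDM1A was called with totals that leave out mitochondrial genes (log2 difference 0.19, adjusted p = 0.00551). Its sign was negative with quantile normalization (-0.0761) and with library weights (-0.0046). Leaving out single libraries gave KDM1A between -0.0085 and 0.012, negative without H211 control replicate 3 or H82 control replicate 1 (-0.0069), and none of these fits called it. With a filter of at least 5 in at least 3 libraries, the median of the mesenchymal list was -0.72 and that of the ion channel list 0.94; fewer members were then tested. Deviations of same-numbered libraries of the lines correlated at -0.05, -0.0037 and -0.05, so no effect shared by same-numbered libraries was seen. This cannot show whether the samples were handled as pairs. With the replicate block, 2884 and 2967 genes had a 2-fold call. The share of genes with the same 2-fold call under ORY-1001 was 74.2 to 82.3% over the alternatives. Unknown depth limits what can be said of genes near 0.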
